A study of Mus musculus with 12 samples.

Results

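The genes of the proteasome, the protease complex that degrades ubiquitin-tagged proteins, were examined in bulk RNA sequencing of sorted brain cells. The members were the protein-coding mouse genes whose symbol starts with Psm, a letter from a to g and a digit, and 50 of the 47643 genes in the count table met this rule. They comprised 8 core alpha genes, 11 core beta genes, 6 regulatory ATPase genes, 11 regulatory non-ATPase genes, 6 activators or regulators and 7 assembly chaperones. The remaining match, *Psmc3ip*, encodes a recombination protein that is no proteasome subunit. It was kept out of these classes but stayed in the shares and motif counts given for all members. A further 4 matches were not protein-coding and had 0 counts.

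The samples came from 5 male p16-3MR mice on a C57BL/6 background, aged 113, 115, 116, 116 and 116 weeks (mice 1 to 5). All mice carried the 3MR transgene, in which a red fluorescent protein (RFP) is driven by the p16 promoter, so a cell was sorted by reporter fluorescence and not by its own p16 transcript. The sort kept cells that took up the DNA dye Draq5 and shut out DAPI, which marks them as viable, and each mouse gave 1 sample of cells with low fluorescence (RFPneg, called RFPLow in the study) and 1 with high fluorescence (RFPpos, or RFPHigh), so the groups were paired by mouse. The groups shared genotype, sex and age, and no treated or young mice were among the bulk samples. The comparison asks how cells with a highly active p16 reporter differ in proteasome gene expression from the other viable cells of the same aged brain.

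The 20S core particle is a barrel of stacked rings. The alpha subunits form the outer rings and gate the entry of substrates, and the beta subunits form the inner rings, in which *Psmb5*, *Psmb6* and *Psmb7* encode the proteolytic sites. The 19S regulatory particle binds and deubiquitinates substrates through its non-ATPase subunits and unfolds them with its ring of ATPases, and in immune cells, microglia included, interferon can replace the catalytic subunits with the immunoproteasome counterparts encoded by *Psmb8*, *Psmb9* and *Psmb10*.

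Counts on genes lay between 177287 and 415834 in the RFPneg samples and between 222560 and 289713 in the RFPpos samples. The libraries read the 3′ end of transcripts and give about 1 tag for each, so levels are given as CPM, counts scaled to 1000000 counts on genes per sample, which follow transcript numbers without a length correction, as far as the annotated 3′ end catches the tags. Proteasome genes held 0.321%, 0.333%, 0.341%, 0.295% and 0.299% of the counts in the RFPneg samples of mice 1 to 5. In the RFPpos samples the shares were 0.245%, 0.313%, 0.306%, 0.270% and 0.252%. The share was lower in the RFPpos sample of every mouse, and lowest in mice 1 and 5. The RFPpos samples of these mice also had the fewest genes detected, 10396 in mouse 1 and 10308 in mouse 5, against 11425 to 14272 in the other samples. Library measures also moved with the groups. Reads on no gene made up 32.1% to 37.2% of the RFPneg samples and 38.4% to 48.6% of the RFPpos samples, higher in RFPpos in 5 of 5 mice and highest in mouse 5. Fewer genes were detected in the RFPpos sample of 5 of 5 mice as well. The part of these measures in the lower proteasome share was not tested.

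All 50 members had at least 1 count, but only 32 were abundant enough to be among the 4210 genes tested. Of these 32, edgeR's quasi-likelihood test with Benjamini-Hochberg adjustment called 1 gene lower in RFPpos, *Psma7*, where 11.6% of all genes tested were called lower. It called 0 members higher, where 10.1% of all genes were called higher. At an unadjusted p under 0.05, 6 members were lower (17.6% of all genes) and 1 was higher (15.4% of all genes). DESeq2, limma with voom weights and edgeR's likelihood ratio test likewise called *Psma7* lower and 0 members higher. With all libraries thinned to the smallest one, 3 of 27 members tested were called lower, where 12.3% of all genes were, *Psma1* (log2 fold change −0.82), *Psma7* and *Psmb6* (−0.81), with adjusted p-values of at most 0.0484, and 0 were called higher, where 10.3% of all genes were. With the added condition of an absolute log2 fold change over 1, used in the study, 0 were called, where 5.75% of all genes were called higher and 9.14% lower. In these sorted populations, fewer cells of a type and less RNA per cell cannot be told apart.

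The groups also differed in markers of cell types. Of 20 microglia genes, 19 were called higher in RFPpos. Their summed level was 26234, 17924, 18933, 16980 and 24626 CPM in the RFPneg samples and 47902, 42093, 44550, 42893 and 36438 CPM in the RFPpos samples. The most abundant, *Ctss*, had 4144 ± 610.3 CPM (SD, n = 5) and 9711 ± 984 CPM (SD, n = 5), and none of the 20 was at 0 in either group. Microglia genes were thus abundant in both groups.

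Of 12 endothelial genes, 11 were tested and all 11 were called lower. Their summed level was 2459, 7460, 7950, 9997 and 6187 CPM in the RFPneg samples and 193, 352, 372, 599 and 441 CPM in the RFPpos samples. *Flt1*, the most abundant, had 1285 ± 493 CPM (SD, n = 5) and 32.9 ± 20.4 CPM (SD, n = 5). All 12 had at least 1 count in RFPpos. In the oligodendrocyte list 8 of 9 tested genes were called lower, in the neutrophil list 5 of 5, in the astrocyte list 4 of 11, in the monocyte list 3 of 3 and in the neuron list 1 of 3. Of the 2 mural genes tested 2 were called lower, as were 2 of 2 choroid plexus genes, 1 of 2 fibroblast genes and 1 of 1 erythrocyte gene. In the list of olfactory ensheathing cells and glial progenitors, 2 genes were called higher and 3 lower. The RFPpos sample of mouse 1, which had the lowest proteasome share, stood apart in composition. Astrocyte genes summed to 1245 CPM there and to 4919 to 9442 CPM in the other RFPpos samples. For olfactory ensheathing cells and glial progenitors the sums were 324 CPM and 2520 to 4918 CPM. The single genes tested for B cells and for macrophages at the borders of the brain were not called, and no gene of oligodendrocyte progenitors was abundant enough. Of 7 T and NK cell genes, 6 were at 0 in the RFPpos samples, *Cd3e*, *Cd3g*, *Cd3d*, *Nkg7*, *Trbc2* and *Cd8a*, and the gene of the list that was tested, *Ccl5*, was called lower. The part of these cell types in the proteasome values was not tested. *Cdkn2a*, the locus of p16, had 2, 0, 0, 2 and 4 counts in the RFPneg samples and 0 in all 5 RFPpos samples. All of its counts thus lay in the group with low reporter fluorescence, opposite to the direction of the sort. Taken singly, an RFPpos sample with a count of 0 allowed up to 10.4 to 13.5 CPM, and the counts were too few to check the sort. The study states that cells with abundant p16 transcript were enriched in its sorted RFPHigh population.

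The log2 fold changes of the 32 genes ran from −0.94 for *Psma7* to 0.71 for *Psmd11*, with a median of −0.17 beside −0.03 for all genes tested. The value was below 0 for 24 genes and above 0 for 8. The 95% confidence intervals reached between 0.43 and 0.98 to either side of the estimate, with a median of 0.71, so that smaller differences in a single gene were mostly not detectable at this depth.

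**Figure D1:**
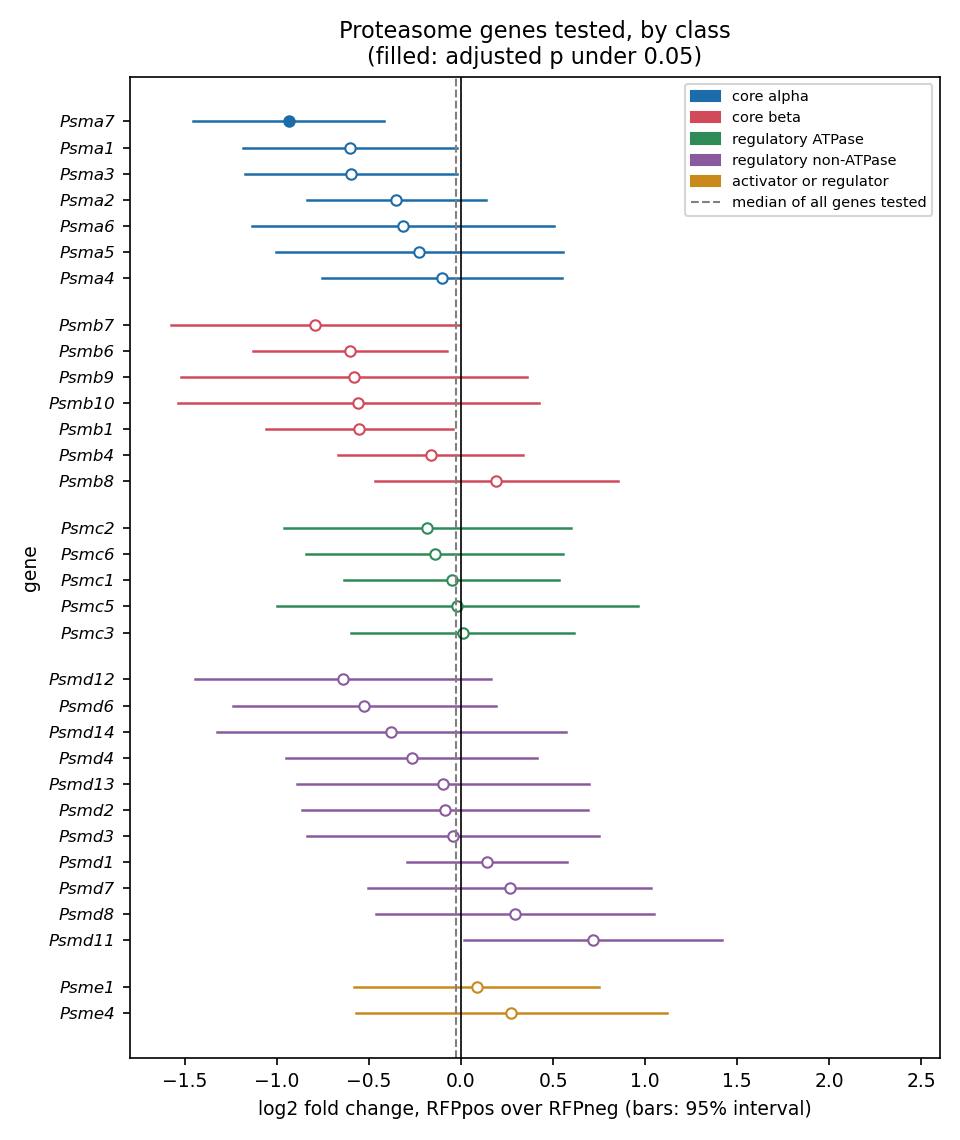
Log2 fold change (RFPpos over RFPneg, horizontal axis) of the 32 proteasome genes tested, grouped by class, with 95% confidence intervals from edgeR. *Psma7* is the only filled point (adjusted p under 0.05); 13 of the 14 core genes lie below 0, while the regulatory genes lie on both sides.

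*Psma7* (ENSMUSG00000027566, chromosome 2, 180036374 to 180042433 on the minus strand of GRCm38) encodes the alpha 4 subunit of the core. In the RFPneg samples of mice 1 to 5 its level was 152, 219, 180.4, 169 and 137 CPM. The RFPpos samples had 117, 93.2, 108, 104 and 41.2 CPM. The groups did not overlap, the level was lower in the RFPpos sample of 5 of 5 mice, and the RFPpos sample of mouse 5 was the lowest of all. The log2 fold change was −0.94 (standard error 0.25, 95% interval −1.46 to −0.42), with an adjusted p of 0.0101 from edgeR's quasi-likelihood test with Benjamini-Hochberg adjustment. Without mouse 2, whose RFPneg sample had the highest level, the value was −0.85 and the adjusted p 0.0578, so the call was lost, and over all alternatives the adjusted p ran from 0.00183 to that value. The value was −0.80 without mouse 5.

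The bases before the annotated starts of *Psma7* and of the genes *Psmb6* and *Psmd11* are shown because *Psma7* carries the only call and the other genes, picked after their values were seen, lay on opposite sides of 0. They are the 250 bases before each start from RefSeq on GRCm38.p6, read 5′ to 3′ on the strand of the gene: *Psma7* at chr2:180042465-180042714 on the minus strand, *Psmb6* at chr11:70525107-70525356 on the plus strand and *Psmd11* at chr11:80428365-80428614 on the plus strand. Capitals mark matches on either strand to 4 motifs, the antioxidant response element core TGACNNNGC, which Nfe2l1 and Nfe2l2 bind, the interferon response core GAAANNGAA, the NF-Y box CCAAT and the Sp1 box GGGCGG.
Psma7: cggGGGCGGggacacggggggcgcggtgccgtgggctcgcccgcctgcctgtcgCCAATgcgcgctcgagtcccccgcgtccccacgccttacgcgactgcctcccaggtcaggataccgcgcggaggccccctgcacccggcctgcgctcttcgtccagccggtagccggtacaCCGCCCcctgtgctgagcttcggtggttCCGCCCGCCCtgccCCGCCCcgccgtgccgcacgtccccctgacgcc
Psmb6: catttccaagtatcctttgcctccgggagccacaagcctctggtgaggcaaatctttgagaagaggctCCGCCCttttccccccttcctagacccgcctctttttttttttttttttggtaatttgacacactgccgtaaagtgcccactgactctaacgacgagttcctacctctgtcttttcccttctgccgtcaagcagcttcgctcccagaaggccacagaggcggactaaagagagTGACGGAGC
Psmd11: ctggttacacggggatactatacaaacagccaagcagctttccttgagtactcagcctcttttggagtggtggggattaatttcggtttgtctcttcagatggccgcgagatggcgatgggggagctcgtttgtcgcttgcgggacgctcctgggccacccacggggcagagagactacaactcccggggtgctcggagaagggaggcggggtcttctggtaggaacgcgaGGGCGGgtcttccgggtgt
The *Psma7* stretch held 5 Sp1 boxes, 2 of which overlap, and 1 NF-Y box. The *Psmb6* stretch held 1 Sp1 box and, directly before the start, 1 antioxidant response element core. In *Psmd11* there was 1 Sp1 box. Of the 50 members, 42 had a window of 300 bases in the RefSeq table. The antioxidant response element core occurred in 6 of these 42, or 14.3%. It occurred in 14.0% of all 27025 genes with a window and in 17.7% of the genes tested that had a window. The interferon response core occurred in 7 of the members, 16.7%, against 9.76% of all genes and 9.17% of the genes tested. The members holding it included *Psme1* but not *Psmb8*, *Psmb9* or *Psmb10*. The NF-Y box occurred in 15 (35.7%, against 41.1% of all genes and 41.9% of the genes tested). The Sp1 box occurred in 23 (54.8%, against 38.2% of all genes and 71.8% of the genes tested that had a window). A match describes the letters of the window only.

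Of the other alpha genes tested, *Psma1* (alpha 6) and *Psma3* (alpha 7) had log2 fold changes of −0.60 each, were lower in RFPpos in 5 and 4 of 5 mice, and had adjusted p-values of 0.135 and 0.134 from edgeR. *Psma1* was at −0.35 without mouse 3. The remaining alpha genes tested, *Psma2*, *Psma4*, *Psma5* and *Psma6*, had values from −0.35 to −0.10, so that all 7 lay below 0 and their median was −0.35. *Psma4* turned to 0.19 without mouse 1. *Psma8*, the testis counterpart of *Psma7*, had 5 counts in all.

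Summed over the 8 alpha genes, the level was 739, 882, 846, 692 and 637 CPM in the RFPneg samples. In the RFPpos samples it was 427, 621, 677, 579 and 412 CPM. The sum was lower in RFPpos in 5 of 5 mice, the groups overlapped, and mice 1 and 5 gave the lowest RFPpos values.

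Among the beta genes, *Psmb1* (beta 6, a structural subunit) was the most abundant, with 209, 184, 226, 274 and 230.2 CPM in the RFPneg samples. Its RFPpos samples had 112, 210.6, 206, 204 and 70.0 CPM. Mice 1 and 5 had low RFPpos levels and the other mice did not, and the estimate was −0.55 on the log2 scale, with lower RFPpos levels in 4 of 5 mice (standard error 0.24, edgeR adjusted p = 0.117). Without mouse 5 it was −0.32. *Psmb4* (beta 7) had −0.16. Of the other structural subunits, *Psmb2* and *Psmb3* were too low to be tested.

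The constitutive catalytic genes differed in depth. *Psmb6*, which encodes the caspase-like site, had 102, 148, 139, 177 and 93.4 CPM in the RFPneg samples and 85.4, 89.7, 112, 91.8 and 57.7 CPM in the RFPpos samples. It was lower in RFPpos in 5 of 5 mice with overlapping groups, at −0.60 on the log2 scale (standard error 0.25, edgeR adjusted p = 0.0988). *Psmb7*, which encodes the trypsin-like site, had 107, 66.3, 40.9, 52.3 and 56.7 CPM in the RFPneg samples and 40.4, 38.0, 26.9, 51.9 and 24.7 CPM in the RFPpos samples. The RFPneg sample of mouse 1 was the highest, mouse 4 hardly differed between its samples, the level was lower in RFPpos in 5 of 5 mice, and the fitted log2 ratio was −0.79 (standard error 0.37, edgeR adjusted p = 0.146). The 3′ end of *Psmb7* lies antisense to exons of *Nek6*, and whether the counting used strand is not given in the sources used here. *Psmb5*, which encodes the chymotrypsin-like site, had only 1, 2, 7, 4 and 1 counts in the RFPneg samples and 0, 2, 2, 4 and 3 counts in the RFPpos samples, and the count of 0 in mouse 1 allowed up to 13.5 CPM. No difference in *Psmb5* was detectable at this depth.

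**Figure D2:**
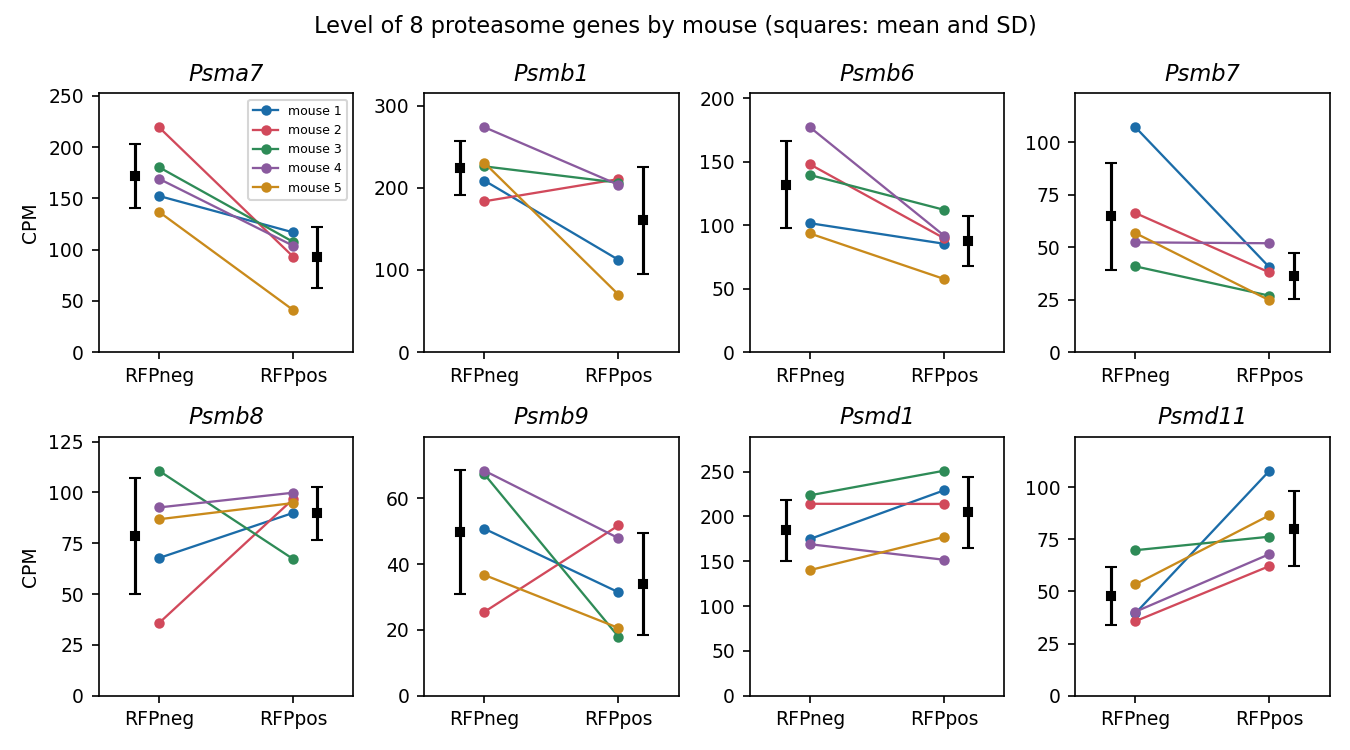
Level in CPM of 8 proteasome genes in the RFPneg and RFPpos sample of each mouse (lines join samples of a mouse, squares give the mean and SD of 5). The lines of *Psma7* and *Psmb6* slope down and those of *Psmd11* slope up in 5 of 5 mice, while those of *Psmb8*, *Psmb9* and *Psmd1* run both ways.

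The immunoproteasome genes were all abundant enough to be tested. *Psmb8*, the counterpart of *Psmb5*, had 67.7, 35.7, 111, 92.6 and 86.8 CPM in the RFPneg samples and 89.9, 96.6, 67.2, 99.8 and 94.7 CPM in the RFPpos samples. The RFPneg sample of mouse 2 was low and mouse 3 went the other way from the rest, which were higher in RFPpos. Its log2 fold change of 0.19 (standard error 0.32, edgeR adjusted p = 0.733) was the only one above 0 among the 14 core genes tested, and was −0.04 without mouse 2. *Psmb9*, the counterpart of *Psmb6*, had 50.8, 25.5, 67.3, 68.4 and 36.7 CPM in the RFPneg samples and 31.5, 51.8, 17.9, 47.9 and 20.6 CPM in the RFPpos samples. The RFPpos sample was lower in 4 of 5 mice and higher in mouse 2 (log2 fold change −0.58, standard error 0.45, edgeR adjusted p = 0.408), and the value ran from −0.95 without mouse 2 to −0.25 without mouse 3. *Psmb10*, the counterpart of *Psmb7*, had 45.1, 45.9, 43.3, 48.3 and 80.1 CPM in the RFPneg samples and 35.9, 24.2, 67.2, 51.9 and 8.24 CPM in the RFPpos samples. Mouse 5 held both the highest and the lowest of these values, the level was lower in RFPpos in 3 of 5 mice, and the fitted log2 ratio was −0.56 (standard error 0.47, edgeR adjusted p = 0.453). It was −0.08 without mouse 5 and −0.91 without mouse 3. *Psmb11*, the thymoproteasome counterpart of *Psmb5*, had 3 counts in all.

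*Psmb8* therefore had far more tags than *Psmb5* in these samples, 225 counts against 26. The scale is about 1 tag per transcript only as far as the annotated 3′ end of each gene catches its tags. This was not tested for the catalytic genes, and the limit holds for the share below as well. Taken as a share of the counts of all 6 catalytic genes, the immunoproteasome genes held 43.3%, 32.3%, 52.9%, 46.0% and 57% in the RFPneg samples. In the RFPpos samples they held 55.6%, 56.2%, 50.7%, 55.6% and 56.6%. The RFPneg samples varied widely and the RFPpos samples did not, the share was higher in RFPpos in 3 of 5 mice, and the means were 46.3% ± 9.52 (SD, n = 5) and 54.9% ± 2.38 (SD, n = 5). Each sample's exact 95% binomial interval was wide, for example 21.2% to 45.1% in the RFPneg sample of mouse 2 and 45.3% to 66.7% in its RFPpos sample, and covers counting error only. The summed level of the constitutive genes was 207 ± 34.6 CPM (SD, n = 5) in RFPneg and 133 ± 24.8 CPM (SD, n = 5) in RFPpos, lower in 5 of 5 mice. That of the immunoproteasome genes was 181 ± 46.6 CPM (SD, n = 5) and 161 ± 27.9 CPM (SD, n = 5), lower in 4 of 5 mice.

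**Figure D3:**
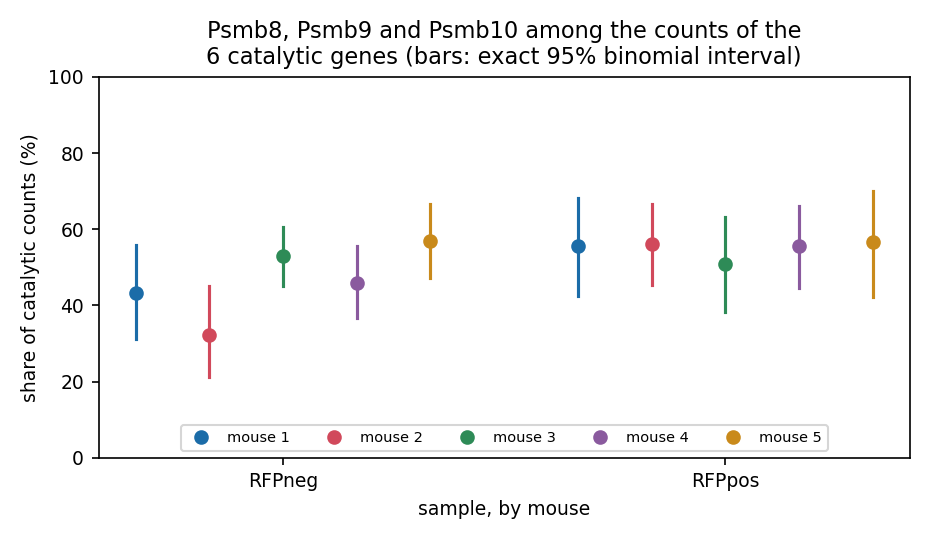
Share of *Psmb8*, *Psmb9* and *Psmb10* among the counts of the 6 catalytic genes in each sample (vertical axis, percent), with exact 95% binomial intervals. The RFPpos samples lie between 50.7% and 56.6%, inside the range of the RFPneg samples, 32.3% to 57%.

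Over the 11 beta genes the summed level was 745, 688, 878, 910 and 767 CPM in the RFPneg samples. In the RFPpos samples it was 521, 663, 677, 743 and 461 CPM. The sum was lower in RFPpos in 5 of 5 mice with overlapping groups, and the median log2 fold change of the 7 beta genes tested was −0.56.

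The ATPase genes, which encode the Rpt ring that unfolds substrates, lay nearer to 0. *Psmc3* (Rpt5), the most abundant of them, had 118, 107, 93.8, 96.6 and 127 CPM in the RFPneg samples and 94.4, 183, 148, 87.8 and 57.7 CPM in the RFPpos samples. The RFPpos samples spread on both sides of the RFPneg samples, higher in 2 of 5 mice, and the fitted log2 ratio was 0.01 (standard error 0.29, edgeR adjusted p = 0.992), with negative values under 5 alternatives. The 3′ end of *Psmc3* lies antisense to *Slc39a13*. *Psmc1*, *Psmc2*, *Psmc5* and *Psmc6* had values from −0.18 to −0.02, and each of them turned positive under at least 1 alternative. *Psmc4* was too low to be tested. The summed level of the class was 447 ± 71.1 CPM (SD, n = 5) in RFPneg and 435 ± 84.5 CPM (SD, n = 5) in RFPpos. Within the mice it ran both ways, lower in RFPpos in 2 and higher in 3.

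All 11 non-ATPase genes that the symbol rule catches were tested. Of these, 0 were called by edgeR, where 10.1% of all genes were called higher and 11.6% lower. The lid subunit gene *Sem1*, which lies outside the rule and was called lower, is described with the ubiquitin partners below. DESeq2 and limma also called 0. At an unadjusted p under 0.05, 1 was higher, *Psmd11* (15.4% of all genes), and 0 were lower (17.6% of all genes). *Psmd1* (Rpn2), a scaffold of the base and the most abundant gene of the class, had 175, 214, 224, 169 and 140.1 CPM in the RFPneg samples and 229, 214, 251, 152 and 177 CPM in the RFPpos samples. Its groups overlapped, 3 of 5 mice were higher in RFPpos, and its log2 fold change was 0.14 (standard error 0.21, edgeR adjusted p = 0.704). Its 3′ end shares exonic bases with the overlapping gene model *Gm21972* on the same strand, so its counts are uncertain. *Psmd11* (Rpn6), a lid subunit that clamps the lid to the core, is named after its values were seen because it had the highest fold change. It had 39.5, 35.7, 69.7, 40.2 and 53.4 CPM in the RFPneg samples and 108, 62.1, 76.2, 67.9 and 86.5 CPM in the RFPpos samples. The RFPpos sample was higher in 5 of 5 mice, most in mouse 1, the groups overlapped, and the log2 fold change of 0.71 (standard error 0.33) had an unadjusted p of 0.0462 and an adjusted p of 0.143 from edgeR.

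The other non-ATPase genes had log2 fold changes from −0.64 for *Psmd12* (Rpn5) and −0.52 for *Psmd6* (Rpn7), both lid subunits, to 0.29 for *Psmd8* (Rpn12). *Psmd14*, the deubiquitinase of the lid, had −0.38, and *Psmd4*, a ubiquitin receptor, had −0.27, which was −0.08 without mouse 4 and −0.06 without mouse 5. *Psmd2*, *Psmd3* and *Psmd13* lay between −0.10 and −0.04, and *Psmd7* had 0.26. Without mouse 5, *Psmd7* was at 0.67 and *Psmd8* at 0.11, and without mouse 1 *Psmd7* was at 0.08. The median of the class was −0.09. Its summed level was 797 ± 70.3 CPM (SD, n = 5) in RFPneg and 790.1 ± 104 CPM (SD, n = 5) in RFPpos, again lower in RFPpos in 2 mice and higher in 3.

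Core and regulatory genes were set side by side within the mice, with no test of their difference. For the 14 core genes tested the median log2 ratio between the samples of a mouse was −0.49, −0.24, −0.27, −0.23 and −0.57 in mice 1 to 5. For the 16 regulatory genes tested it was −0.19, 0.15, 0.04, 0.01 and −0.15. The core median was the lower of the pair in every mouse, and both were lowest in mice 1 and 5. Over all 5 mice the fitted medians were −0.56 and −0.07. The core median was −0.58 with RLE size factors and −0.54 with plain library sizes, and the regulatory median −0.09 and −0.07. With a mouse left out, the core median ran from −0.51 to −0.34, the last without mouse 5. The regulatory median was 0.07 without mouse 1, −0.18 without mouse 2 and −0.15 without mouse 3, and −0.16 with thinned counts. With all genes of at least 1 count, which takes in more core genes, the core median was −0.27 and that of all genes −0.25.

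The ratio of the summed core level to the summed regulatory level was 1.13, 1.18, 1.35, 1.59 and 1.09 in the RFPneg samples. In the RFPpos samples it was 0.818, 0.912, 1.05, 1.19 and 0.754. The ratio was lower in RFPpos in 5 of 5 mice, with means of 1.27 ± 0.20 (SD, n = 5) and 0.945 ± 0.18 (SD, n = 5), and the groups overlapped, with mouse 4 high in both. This ratio was formed after the values of the genes were seen and has no test. Its regulatory sum leaves out the lid subunit gene *Sem1*, which was called lower in RFPpos.

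**Figure D4:**
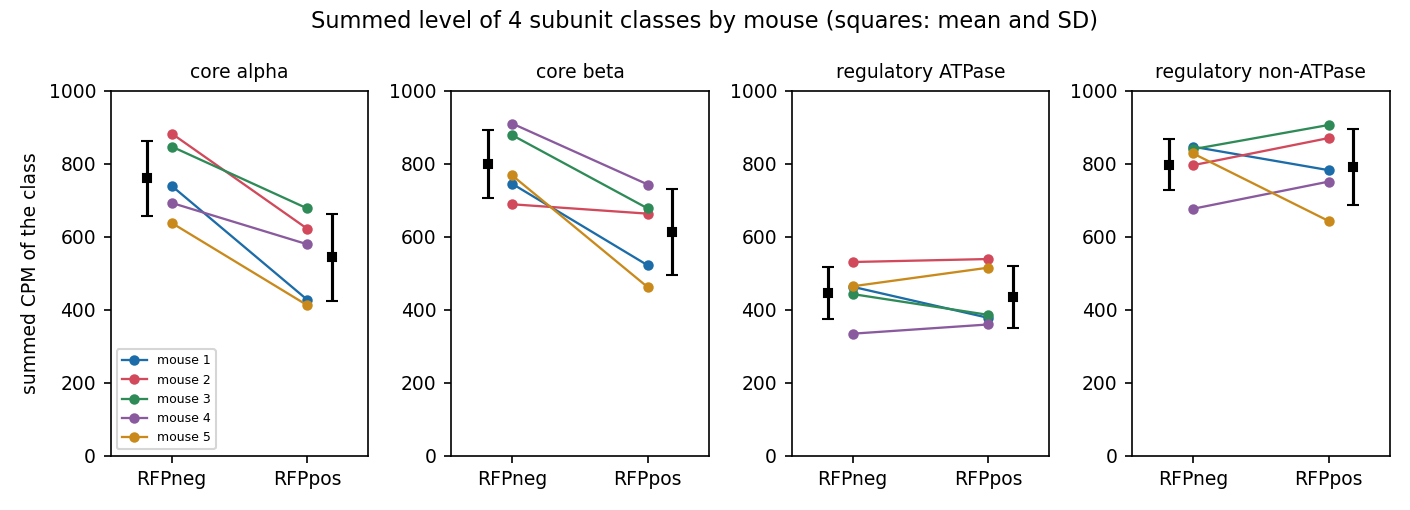
Summed level in CPM of the alpha, beta, ATPase and non-ATPase genes in the RFPneg and RFPpos sample of each mouse (lines join samples of a mouse, squares give the mean and SD of 5). The core alpha and core beta sums are lower in RFPpos in 5 of 5 mice, and each regulatory sum is lower in 2 and higher in 3.

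Of the activators, *Psme1*, which encodes PA28 alpha and opens the gate of the core, had 50.8, 138, 120.2, 105 and 63.4 CPM in the RFPneg samples and 126, 138, 76.2, 67.9 and 103 CPM in the RFPpos samples. The RFPpos sample was higher in 3 of 5 mice, and the fitted log2 ratio was 0.09 (standard error 0.32, edgeR adjusted p = 0.896), with negative values under 3 alternatives. Its 3′ end lies antisense to *Emc9*. *Psme4*, which encodes PA200, had 0.27 (higher in 3 of 5 mice, edgeR adjusted p = 0.704) and was −0.08 without mouse 5. *Psme2*, which encodes PA28 beta, had 10, 8, 8, 4 and 4 counts in the RFPneg samples and 13, 6, 9, 5 and 11 counts in the RFPpos samples, too few for the first test. Its near copy *Psme2b* had 23 counts, and reads of the pair may have been split between them. *Psme3* (PA28 gamma) and *Psmf1* (PI31) had 50 and 77 counts in all.

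None of the 7 assembly chaperones reached the minimum level of 40.7 CPM in 5 samples. *Psmg4* (PAC4), the most abundant of them, had 7, 4, 10, 12 and 8 counts in the RFPneg samples and 3, 12, 2, 5 and 0 counts in the RFPpos samples, where the count of 0 in mouse 5 allowed up to 12.4 CPM. The RFPpos sample was lower in 4 of 5 mice and higher in mouse 2. A second fit took in all 12270 genes with at least 10 counts over the samples, and so 15 of the 18 members left out of the first. It called 0 of these 15, where 4.27% of all its genes were called higher and 7.49% lower. At an unadjusted p under 0.05, 1 of the 15 was lower (13.8% of all its genes) and 0 were higher (8.07%). limma and edgeR's likelihood ratio test also called 0 of them, and their shares of all genes called are not given here.

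The gene at that unadjusted p was *Psmg2* (PAC2), with 34 counts, lower in RFPpos in 4 of 5 mice, and a log2 fold change of −1.91 (standard error 0.95, edgeR adjusted p = 0.21). *Psmg4* had −1.02, *Psmg1* (PAC1) −0.57 and *Psmg3* (PAC3) −0.33, so the 4 chaperones of the core had values below 0. The chaperones of the base had values above 0, with 1.00 for *Psmd10* (gankyrin), 0.63 for *Psmd9* (p27) and 0.28 for *Psmd5* (S5b). The 95% intervals were wide, from −0.29 to 2.3 for *Psmd10* and from −2.23 to 0.19 for *Psmg4*. Of the other low-count members, *Psmb2*, *Psmb3*, *Psmb5*, *Psmc4*, *Psme3* and *Psmf1* had values from −0.83 to −0.08, and *Psme2* and *Psme2b* had 0.51 and 0.48. *Psma8*, *Psmb11* and *Psmc3ip* had under 10 counts and got no value.

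Transcript length was compared with the fold changes. The longest annotated coding transcript had a median length of 1220 bases for the 14 core genes tested and 1887 bases for the 16 regulatory genes. Split into 4 groups of near equal size by length, the genes tested had a median log2 fold change of −0.28 in the group of the shortest transcripts (371 to 2163 bases), of which 17.5% were called lower, against 11.6% over all lengths. In the group of the longest transcripts the median was 0.08. The group of the shortest transcripts held 25 of the 32 members, 12 of the 14 core genes and 12 of the 16 regulatory genes among them. Across the 32 members, Spearman's rho between length and log2 fold change was 0.43, and across 4142 genes it was 0.18. Genes are not independent replicates, and the part of length in the core values was not tested.

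Other large complexes were measured for comparison, and their counts stand against the 11.6% of all genes called lower and 10.1% called higher. Of 98 genes with the symbols of cytosolic ribosomal proteins, some of which are S6 kinase genes caught by the symbol, 78 were tested, 13 were called lower and 1 higher, with a median of −0.29. The respiratory chain list was also taken by symbol, with a pattern that takes in ATP synthase genes and assembly factors. Of its 89 nuclear genes, 64 were tested, 21 were called lower and 0 higher, with a median of −0.73. At an unadjusted p under 0.05, 41 of these were lower and 0 higher, and of the ribosomal symbols 22 were lower and 1 higher. At that threshold 17.6% of all genes were lower and 15.4% higher. With the other scalings of whole libraries, filters and tools and with a mouse left out, the medians ran from −0.38 to −0.18 for the ribosomal symbols and from −0.84 to −0.66 for the respiratory chain. Relative to the microglia genes, a scaling that moves all genes down, they were −1.33 and −1.78.

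The ubiquitin system delivers substrates to the proteasome. Of 47 listed partners, 45 were matched and 32 tested, and their median was 0.05. edgeR called 1 lower (11.6% of all genes) and 0 higher (10.1% of all genes). At an unadjusted p under 0.05, 4 were lower (17.6% of all genes) and 0 higher (15.4% of all genes). The called gene, *Sem1*, encodes a small lid subunit of the proteasome itself that the symbol rule does not catch. *Sem1* is therefore absent from the regulatory sums, medians and ratio given above. With it counted in, the mean regulatory sum would be lower in RFPpos by more, and would differ less from the core in this respect. The level of *Sem1* was 188 ± 40.5 CPM (SD, n = 5) in RFPneg and 103 ± 19.0 CPM (SD, n = 5) in RFPpos. The level fell in 5 of 5 mice, by 0.87 on the log2 scale (standard error 0.24, edgeR adjusted p = 0.0148). The call was lost with DESeq2 (adjusted p = 0.0505), without mouse 2 (0.0816) and without mouse 3 (0.0929), and over all alternatives the adjusted p ran from 0.00407 to the last of these. *Pomp*, the maturation factor of the core, had 0.13, and *Nfe2l2*, a transcription factor known to drive proteasome genes, had 0.39, neither called.

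Of 16 partners in peptide loading and interferon response, which use or control the immunoproteasome's products, 13 were tested, 3 were called higher (10.1% of all genes) and 1 lower (11.6% of all genes), with a median of 0.17. *Canx* and *Calr*, chaperones of the endoplasmic reticulum, and *Irf8*, a transcription factor of myeloid cells, were higher in 5 of 5 mice, with log2 fold changes of 0.97, 0.77 and 0.93 and adjusted p-values from edgeR of 9.19e-04, 0.00584 and 0.00202. *H2-K1*, a class I heavy chain that presents the peptides, fell by 0.58 on the log2 scale in 5 of 5 mice (edgeR adjusted p = 0.0231). This call was lost with DESeq2, with the filters of at least 1 and at least 10 counts and without mouse 2 or 5, and over all alternatives the adjusted p ran from 0.00354 to 0.122. *Tap1* and *Tap2*, the peptide transporters, had 0.48 and −0.24, and neither was called.

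Since microglia transcripts took a larger share of the RFPpos samples, the genes were also compared per microglia transcript, with library sizes set so that the 20 microglia genes summed to the same value in every sample. This scaling moved the median of all genes tested to −1.07. On it, edgeR called 27 of the 32 members lower, where 68.8% of all genes were called lower. It called 0 members higher, where 0.333% of all genes were. limma and edgeR's likelihood ratio test also called 0 higher, where 0.451% and 0.380% of all genes were. No member had a value above 0 on this scale, so 0 were higher at an unadjusted p under 0.05 as well. The median of the members was −1.21. The scaling shifts all genes alike, so the difference between the members and all genes is the same by construction. Of the 13 peptide loading and interferon partners tested, edgeR called 8 lower on this scale, with a median of −0.88, and 0 higher, all of them lying below 0, against the same shares of all genes. *Canx*, *Calr* and *Irf8* had −0.07, −0.27 and −0.12 and were not called.

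The 14 core genes were all called lower on this scaling, where 68.8% of all genes tested were. Their median was −1.61, beside −1.07 for all genes tested. Of the 16 regulatory genes 12 were called lower, with a median of −1.11, near that of all genes. *Psma7* had −2.0, lower in 5 of 5 mice (edgeR adjusted p = 1.05e-05). The genes not called were *Psmd11* (−0.30), *Psmd8* (−0.74), *Psme4* (−0.76), *Psmd7* (−0.77) and *Psmc5* (−1.05), with adjusted p-values from 0.0702 to 0.45 from edgeR. *Psmb8* had −0.83 and an adjusted p of 0.0371 from edgeR, and its call was lost without mouse 3 or 4 and with the filter of at least 1 count, with adjusted p-values from 0.0115 to 0.224 over the alternatives.

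**Figure D5:**
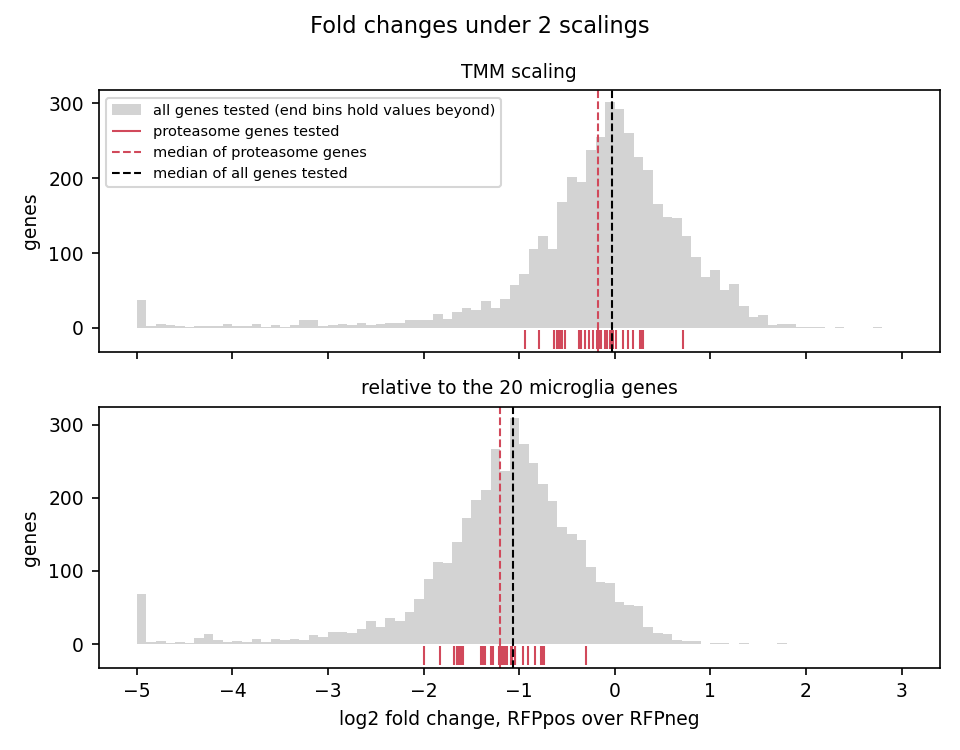
Log2 fold changes (horizontal axis) of the 4210 genes tested (grey bars, number of genes) and of the 32 proteasome genes (red ticks) with TMM scaling and relative to the 20 microglia genes. Dashed lines mark medians; the members' medians are −0.17 and −1.21, and those of all genes −0.03 and −1.07.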

How the data were processed

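The authors prepared QuantSeq 3′ FWD libraries, ran Lexogen's pipeline for libraries with unique molecular identifiers and deposited the counts of reads per gene for the 10 bulk samples, not normalized. The labels name the build mm10 for all 12 samples, and the annotation and strand setting of the bulk counts are not given in the sources used here. The 2 single-cell samples were not analysed here. Reads on no gene (32.1% to 48.6% of a sample) and ambiguous reads (0.295% to 0.436%) were left out of library sizes. Symbols came from GENCODE M21 on GRCm38, for 47224 of 47643 identifiers.

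Counts were fitted with edgeR 4.0.16 in R 4.3.3 (TMM scaling, quasi-likelihood test, mouse as a block) and p-values were adjusted over all genes tested by the Benjamini-Hochberg method. A gene was tested with at least 40.7 CPM in 5 samples and 15 counts in all, and called at an adjusted p under 0.05. The standard error is the absolute log2 fold change divided by the square root of the F statistic. The fit was tested on simulated data. DESeq2 1.42.0 and limma 3.58.1 were alternatives, and the others were other scalings and filters, no block, thinned counts and each mouse left out. The pairing comes from the mouse numbers in the labels and the methods. Across genes, the deviations of paired samples from their group means correlated at 0.22, −0.04, 0.14, −0.01 and 0.02. Ratios within a mouse used a prior count of 2. A count of 0 was taken to allow 3 counts, and these limits cover counting error only.

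The members and lists were chosen with earlier results of these data known. Every member is accounted for. Values by sample are given for called members, the catalytic genes and their counterparts, *Psme1*, *Psme2* and the most abundant gene of each class. Of each partner list, up to 3 called genes per direction are named. The marker lists were those of microglia (20 genes, 10 of them homeostatic) and of other brain, vascular and blood cells.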

Additional observations from a re-analysis of the deposited data

Results flagged for a closer look

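In 82 groups of 5 samples (the CPM of tested members, class sums, shares and ratios), 5 groups had a sample that lay far from the other 4, where chance gives about 1 in 20. *Psmb10* was 80.1 CPM in the RFPneg sample of mouse 5 and 43.3 to 48.3 CPM in the other RFPneg samples. For *Psmc6*, mouse 3 lay apart in both groups, with 103 CPM in RFPneg (others 60.4 to 71.4) and 40.3 CPM in RFPpos (others 67.9 to 76.4). *Psmd4* was 30.6 CPM in the RFPneg sample of mouse 2, against 84.6 to 105 CPM in the others. The immunoproteasome share of the catalytic counts was 50.7% in the RFPpos sample of mouse 3, against 55.6% to 56.6% in the others, a gap inside the binomial interval of that sample (38.2% to 63.2%).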

How the results depend on the processing

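The count of members called higher was 0 under all alternatives. The count called lower was 1 and became 3 with thinned counts, 0 with an absolute log2 fold change over 1, and 0 or 1 with a mouse left out (0 without mouse 2). With a mouse left out, 8.30% to 11.0% of all genes were called lower and 7.22% to 9.76% higher. With no replicate block 1 member was called lower (11.4% of all genes) and 0 higher (10.3% of all genes), and the median of the members was −0.20. The median ran from −0.26 to −0.08 with a mouse left out. Relative to the microglia genes, 22 to 29 members were called lower with a mouse left out, where 55.0% to 72.2% of all genes were. The low-count members also had 0 calls with the filter of at least 1 count and under alternatives chosen after seeing the data (likelihood ratio test, limma, no replicate block and each mouse left out).

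Of the fold changes of single genes compared under alternatives on either scaling, 757 kept their direction and side of the threshold, 22 lost a call, 9 gained one and 39 changed sign. The sign changes concerned uncalled genes, and the cause was not tested. *Psmc5* was 0.41 with limma, 0.055 with at least 1 count, 0.059 with at least 10 counts, 0.22 with no replicate block and 0.045 with thinned counts. *Psmc1* was 0.020 and 0.026 with these filters and 0.0087 with no replicate block. *Psmd3* was 0.032 and 0.038 with these filters and 0.011 with limma, and *Psmd13* 0.031 with limma. *Psmc3* was −0.035 with DESeq2, −0.016 with RLE factors and −0.031 with thinned counts, and *Psme1* −0.10 with thinned counts.

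With each mouse left out in turn, values ran from −0.29 to 0.19 for *Psma4*, −0.037 to 0.48 for *Psmb8*, −0.30 to 0.076 for *Psmc1*, −0.51 to 0.10 for *Psmc2*, −0.19 to 0.26 for *Psmc3*, −0.44 to 0.50 for *Psmc5*, −0.26 to 0.19 for *Psmc6*, −0.38 to 0.12 for *Psmd13*, −0.74 to 0.046 for *Psmd14*, −0.29 to 0.11 for *Psmd2*, −0.25 to 0.20 for *Psmd3*, −0.15 to 0.32 for *Psme1* and −0.080 to 0.66 for *Psme4*. Other uncalled genes kept their sign but moved by over 1.5 times without some mouse, such as *Psma5* (−0.35 to −0.07), *Psma6* (−0.56 to −0.08), *Psmb4* (−0.27 to −0.04), *Psmd1* (0.08 to 0.23), *Psmd6* (−0.74 to −0.33) and *Psmd12* (−0.98 to −0.45).

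Depth limits these results: members left out of the first fit had a median of 45.5 counts over the 10 samples, against 178.5 for those tested.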
